A study of Mus musculus with 15 samples.

Results

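Respiratory chain genes encoded in the nucleus were described in primary mouse ATII cells (type II cells of the alveolar epithelium, which secrete surfactant) and in primary mouse lung fibroblasts. Members were the array sequences whose gene name is that of a subunit family of complex I (Nduf), complex II (Sdh), complex III (Uqcr), complex IV (Cox) or ATP synthase (Atp5). This rule found 84 genes on 132 spots, of 22273 named genes on 59305 spots that are not controls. The groups were 4 arrays of ATII cells with BAPN, 4 of ATII cells with vehicle, 3 of fibroblasts with BAPN and 4 of fibroblasts with vehicle. BAPN (β-aminopropionitrile, an inhibitor of the lysyl oxidases that cross-link collagen and elastin) was given at 1 mM for 24 h, and vehicle was phosphate-buffered saline. ATII cells had been kept for 3 days at an air-liquid interface, while fibroblasts had gone through 3 or more passages and a 24 h starvation, so cell type and culture cannot be told apart. The labels give no strain, age or sex. They also leave unsaid whether each replicate is its own animal or culture, and the p-values here rest on the scatter among these arrays, part of which may be technical. The label of 1 array of ATII cells with BAPN calls it a replacement and numbers no replicate, and it is called replicate 5 here.

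The respiratory chain sits in the inner mitochondrial membrane. Complexes I and II pass electrons from NADH and succinate to ubiquinone, complex III passes them to cytochrome c, and complex IV passes them to oxygen, while ATP synthase uses the resulting proton gradient to make ATP. Most subunits are encoded in the nucleus and a small set by mitochondrial DNA, and some subunits of complex IV exist as isoforms that differ between tissues.

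Of the 84 genes, 81 were well above background on all 15 arrays and were tested in every comparison. Cox7b2 and Cox8c, isoform genes known from testis, were well above background on 0 of 15 arrays. Cox8b, a muscle isoform gene, was well above background on 3 arrays, 1 of which carried an outlier mark, and had no value on all arrays. The 81 tested genes were 35 of complex I, 4 of complex II, 8 of complex III, 16 of complex IV (with Ndufa4, which is now counted there) and 15 of ATP synthase. The remaining 3 carry a member's name but encode no structural subunit: Atp5s and Atp5sl, now named Dmac2l and Dmac2, and Cox4nb, now Emc8. In bulk samples, fewer cells of a type and less RNA per cell cannot be told apart.

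Each array carried 62976 spots, and 65.2% to 71.2% of those that are not controls were well above background. Levels are normalized log2 intensities in which 0 is the 75th percentile of the array, so they are compared between samples and never between genes. The labels were set against markers. All 6 epithelial markers were well above background on every ATII array. The log2 of their summed linear levels was 9.55 to 9.93 in ATII BAPN arrays, 9.32 to 9.72 in ATII vehicle arrays, 2.02 to 4.33 in fibroblast BAPN arrays and 2.02 to 4.24 in fibroblast vehicle arrays. The sums of the other lists are of this kind, and the brightest genes of a list weigh most in them. Of 9 ATII markers, Slc34a2 was well above background on no array of any group, and Sftpa1, Sftpb and Nkx2-1 on no fibroblast array. In each ATII group 7 of the 9 were well above background on all arrays, and in each fibroblast group 4 were. Their summed levels were 5.49 to 5.64 over the ATII arrays, 5.06 to 5.42 in fibroblast BAPN arrays and at most 5.18 in fibroblast vehicle arrays. The ATII list thus separated the cell types far less than the epithelial list. All 10 fibroblast markers were well above background on the ATII arrays too, with summed levels of 10.33 to 10.74 (ATII BAPN), 10.19 to 10.59 (ATII vehicle), 10.49 to 10.87 (fibroblast BAPN) and 10.36 to 10.82 (fibroblast vehicle). The 8 macrophage markers summed to 3.05 to 3.38, 3.20 to 3.36, 4.49 to 5.45 and 4.51 to 5.43 in the same order of groups. The part that other cells in the cultures take in the results below was not tested. Fibroblast vehicle replicate 4 stood apart: the median of 75 bright respiratory chain genes lay 0.26 above the group mean there, and that of 6846 other bright features 0.16. Arrays were spread over 2 slides, and slide 1 held 3 ATII BAPN, 2 ATII vehicle, 1 fibroblast BAPN and 2 fibroblast vehicle arrays.

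Array sequences are shown for the genes on which the results turn, since the value of a gene is that of its sequence on the array. Each is 60 bases in the sense of the transcript. The first 30 bases are printed, or 30 bases around the polyadenylation signal AATAAA, given in capitals, where the sequence holds one. Of the 122 member sequences with values on all arrays, 40 (32.8%) held this signal, against 10.1% of all 55212.
Uqcrc2, chr7:127802599-127802658, plus strand: cttttctcgacgagttataacacatgcgtg
Uqcrfs1, chr13:30632363-30632422, minus strand: gcatAATAAAaccactgttgaacatcatta
Cox6b1, chr7:31409575-31411071, minus strand, spanning an intron: aggagtcaggatggctgaagacatcaagac
Cox6b2, chr7:4703488-4703547, minus strand: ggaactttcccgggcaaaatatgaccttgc
Cox4i1, chr8:123197924-123197983, plus strand: aagcgaatgctggacatgaaggccaacccc
Cox4i2, chr2:152590711-152590770, plus strand: actcccttctccAATAAAagcagcctgctt
Ndufb5, chr3:32650097-32650156, plus strand: tgggaagaaatgAATAAAtactctgtattt
Ndufb5, second sequence, chr3:32650236-32650295, plus strand: cagggtagtaatgaaacctggaggtctggg
Coordinates are those of the whole array sequence in mm9, per the array files. The isoform pairs share little sequence on the array: the longest run in common was 7 of 60 bases for Cox4i1 and Cox4i2 and 6 of 60 for Cox6b1 and Cox6b2. Matches to processed pseudogenes, which are common in these families, were not examined here.

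ATII cells and fibroblasts in vehicle differed in few respiratory chain genes and by small amounts. Of the 81 genes tested, 8 (9.88%) passed an adjusted p of 0.05 (limma with Benjamini-Hochberg adjustment over 32470 features), against 31.3% of all features. In ATII cells 5 genes were higher, against 14.5% of all features, and 3 lower, against 16.8%. The median log2 change of the 81 genes was 0.06, and that of all features −0.13. Leaving out 1 array moved the median of the 81 genes to between 0.008 (without fibroblast replicate 1) and 0.12 (without fibroblast replicate 4). The median size of the change was 0.13 for these genes and 0.34 for all features tested. A change of at most 0.50 was found for 95.1% of these genes and 64.8% of the other features. The 95% interval lay inside 2-fold for 80 of 81 genes and for 57.8% of all features. Since 78 of the 81 genes are brighter on average than the 75th percentile, the fit was repeated on such bright features alone, as a setting added after the data were seen. Then 13 of 78 genes passed (16.7%), 8 higher and 5 lower, against 49.0% of 11487 features.

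**Figure D1:**
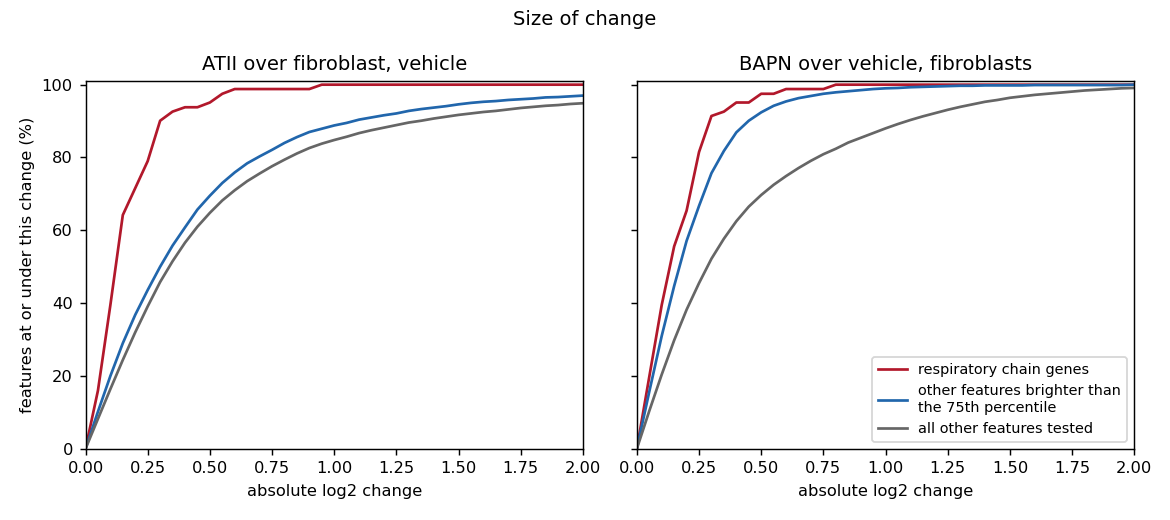
Share of features (percent, vertical axis) whose absolute log2 change is at or under the value on the horizontal axis, for ATII over fibroblast in vehicle (left) and BAPN over vehicle in fibroblasts (right). In the left panel 79.0% of the respiratory chain genes changed by at most 0.25, against 43.6% of other bright features and 39.1% of all other features.

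Absence of overlap was part of the rule for naming genes that passed between cell types, so below it is a description and no added support. Complex III had 2 rises among 8 genes. Uqcrc2, a core protein of complex III, had levels of 5.09, 5.06, 4.97 and 5.06 in ATII cells with vehicle, against 4.54, 4.54, 4.55 and 4.45 in fibroblasts with vehicle. Every ATII array lay above every fibroblast array, and the log2 change was 0.53 ± 0.08 (SE; 1.44-fold, limma, adjusted p = 0.000199). Uqcrfs1, the Rieske iron-sulfur protein that takes electrons from ubiquinol, had 4.56, 4.52, 4.46 and 4.46 in ATII cells, against 4.25, 4.06, 4.22 and 4.36 in fibroblasts. These groups did not overlap either, with a log2 change of 0.28 ± 0.09 (SE, limma, adjusted p = 0.0377). The other 6 genes of complex III did not pass, and the whole group ran between −0.11 (Uqcrh) and 0.53.

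Complex I had 1 rise and 1 fall among 35 genes. Ndufs8, an iron-sulfur subunit of the peripheral arm, had 3.42, 3.48, 3.39 and 3.54 in ATII cells, against 3.05, 3.04, 3.13 and 3.32 in fibroblasts (log2 change 0.32 ± 0.10, SE, limma, adjusted p = 0.0261). Ndufa11, an accessory subunit of the membrane arm, had 3.47, 3.38, 3.33 and 3.35 in ATII cells, against 3.64, 3.71, 3.82 and 4.20 in fibroblasts (log2 change −0.46 ± 0.13, SE, adjusted p = 0.0127). Neither pair of groups overlapped, and the highest fibroblast value of both genes was that of vehicle replicate 4. The median of complex I was 0.02, with 19 genes above and 16 below 0.

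Of the catalytic core, Ndufs8 and Uqcrfs1 passed and the other subunits described here did not. Ndufs1, Ndufs3 and Ndufs7, core subunits of complex I, had log2 changes of 0.17, 0.10 and −0.01. Ndufv1 and Ndufv2, which take electrons from NADH, had −0.01 and 0.11. The 4 subunits of complex II, Sdha (flavoprotein), Sdhb (iron-sulfur protein), Sdhc and Sdhd (membrane anchors), had 0.06, 0.09, −0.24 and 0.12. Atp5a1 and Atp5b, the alpha and beta subunits that form the catalytic head of ATP synthase, had −0.003 and 0.10. None of these 11 passed (limma, adjusted p from 0.0914 for Sdhc to 0.99 for Atp5a1), and the 95% interval of Atp5a1 ran from −0.25 to 0.25. A p above the threshold does not show that the levels are equal.

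In complex IV the isoform gene Cox6b2 was lower in ATII cells and Ndufa4 higher. Cox6b2, an isoform of the intermembrane subunit known from testis, had levels of 0.30, −0.12, 0.46 and −0.07 in ATII cells, against 1.04, 1.15, 1.25 and 0.78 in fibroblasts. All ATII arrays lay below all fibroblast arrays (log2 change −0.91 ± 0.17, SE, 1.88-fold lower, limma, adjusted p = 0.000862). Its widely expressed counterpart Cox6b1 did not pass (−0.08 ± 0.12, SE, adjusted p = 0.664). Ndufa4 had 5.34, 5.33, 5.22 and 5.38 in ATII cells, against 4.96, 4.72, 4.95 and 5.05 in fibroblasts (log2 change 0.39 ± 0.13, SE, adjusted p = 0.0375).

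None of the other complex IV isoforms passed. The widely expressed Cox4i1, Cox6a1, Cox7a2, Cox7b and Cox8a, and Cox7a2l, which takes part in supercomplex assembly, had log2 changes between −0.10 and 0.08 (limma, adjusted p 0.561 or more). For Cox7a2l, 1 further array sequence gave −0.38 ± 0.12 (SE) and another −0.08 ± 0.11 (SE). Cox4i2, an isoform known from lung, had −0.28 ± 0.18 (SE, adjusted p = 0.277), and the muscle isoform Cox7a1 had 0.29 ± 0.17 (SE, adjusted p = 0.237), both without overlap of the groups. The muscle isoform Cox6a2 had 0.12 ± 0.35 (SE, adjusted p = 0.848), and its arrays ranged from −0.51 to 1.03 in ATII cells with vehicle and from −0.49 to 0.28 in fibroblasts with vehicle.

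Atp5d, the delta subunit of the central stalk of ATP synthase, had 5.19, 5.10, 5.06 and 5.07 in ATII cells, against 5.42, 5.41, 5.60 and 6.02 in fibroblasts (log2 change −0.51 ± 0.14, SE, limma, adjusted p = 0.0156). The other 14 genes of ATP synthase did not pass, and their changes reached 0.25 (Atp5f1). Atp5sl, which is no structural subunit, had 1.83, 1.91, 1.90 and 1.91 in ATII cells, against 1.25, 1.35, 1.27 and 1.39 in fibroblasts (log2 change 0.57 ± 0.10, SE, limma, adjusted p = 0.00067). The 4 ATII arrays lay above the 4 fibroblast arrays.

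**Figure D2:**
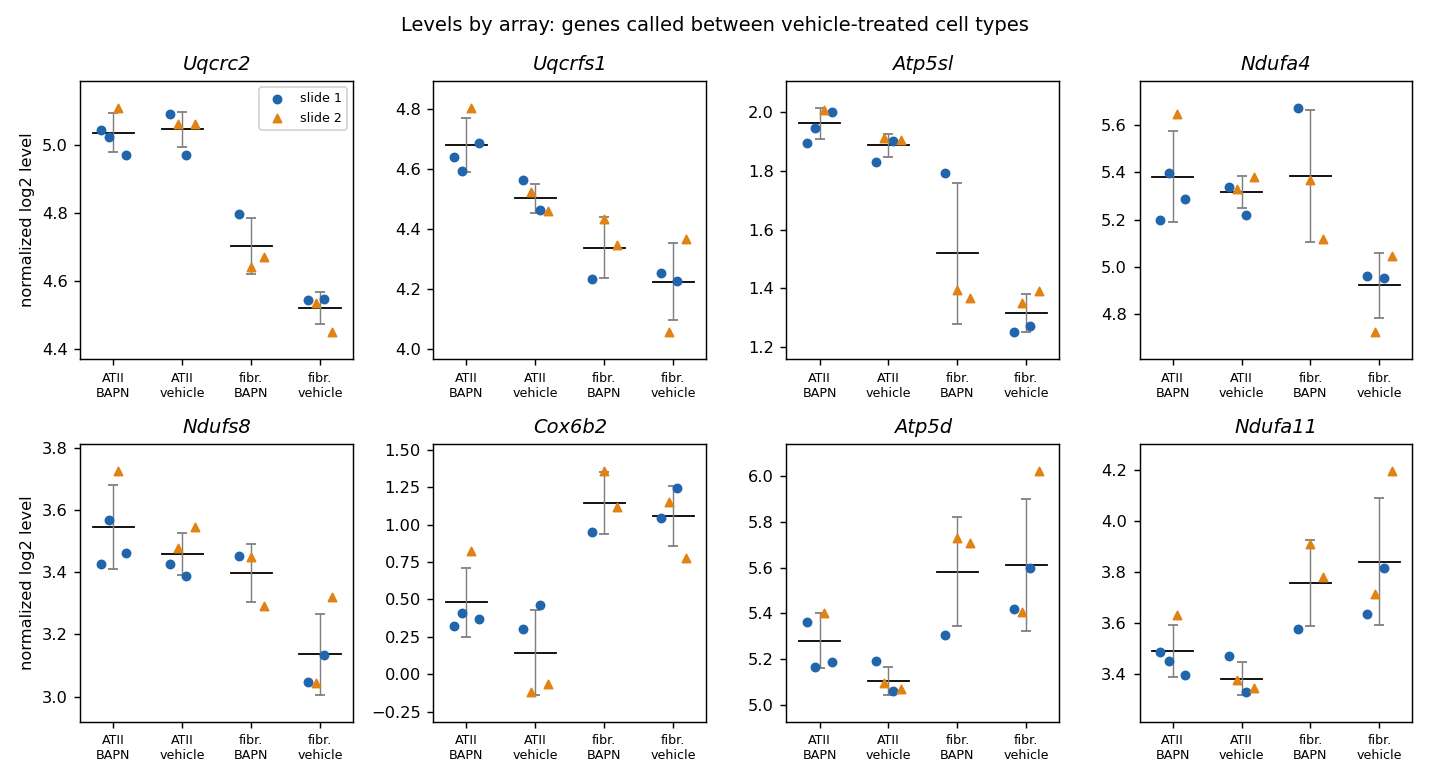
Normalized log2 level (vertical axis) of the 8 genes that passed between vehicle-treated ATII cells and fibroblasts, in each array of the 4 groups. Points are arrays, by slide. Black lines are group means and bars are SDs. Uqcrc2 lay at 4.97 to 5.09 in ATII cells with vehicle and at 4.45 to 4.55 in fibroblasts with vehicle.

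The 8 differences kept their direction on both slides. On slide 1 alone and slide 2 alone the log2 changes were 0.48 and 0.57 for Uqcrc2, 0.27 and 0.28 for Uqcrfs1, 0.61 and 0.54 for Atp5sl, 0.32 and 0.33 for Ndufs8, and 0.32 and 0.47 for Ndufa4. They were −0.76 and −1.06 for Cox6b2, −0.38 and −0.63 for Atp5d, and −0.33 and −0.59 for Ndufa11. With the replicate number as a block, 5 genes passed, 2 higher (Uqcrc2, Atp5sl) and 3 lower (Cox6b2, Atp5d, Ndufa11), and these 5 also passed without any single array of the groups compared. Ndufa4 lost its call without fibroblast replicate 1, 2 or 3 or ATII replicate 1, 2 or 4, and Ndufs8 without fibroblast replicate 1, 2 or 3 or ATII replicate 2 or 4 (adjusted p up to 0.112 and 0.0751). Uqcrfs1 lost it without any array but fibroblast replicate 4 (adjusted p up to 0.119). Quantile scaling gave 12 genes, 5 higher and 7 lower. The split into higher and lower thus depends on the scaling. Quantile scaling gave a median of −0.02 for all features, against −0.13, and of 0.05 for the 81 genes, against 0.06.

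ATII cells and fibroblasts under BAPN were measured on other arrays, and the comparison of cell types was made again there. It is not shown to be an independent repeat. The arrays lay on the same slides, and the scatter behind the p-values of both comparisons came from the same fit to all arrays. Whether same-numbered arrays with BAPN and vehicle share an animal or culture is not known. Of 81 genes, 5 passed (6.17%, limma), against 29.3% of 32268 features, with 4 higher (13.4% of all features) and 1 lower (15.9%). Of these 5, 4 had also passed in vehicle in the same direction, which is 4 of the 8 called in vehicle and 4 of the 5 called here. The 4 were Uqcrc2, Uqcrfs1, Atp5sl and Cox6b2. Among bright features alone 10 of 78 genes passed, against 42.9% of features.

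Uqcrc2 had 5.04, 5.02, 5.11 and 4.97 in ATII cells with BAPN, against 4.80, 4.64 and 4.67 in fibroblasts with BAPN (log2 change 0.34 ± 0.09, SE, limma, adjusted p = 0.00976). Uqcrfs1 had 4.64, 4.59, 4.80 and 4.68 in ATII cells, against 4.23, 4.43 and 4.34 in fibroblasts (0.34 ± 0.10, SE, adjusted p = 0.0205). Cox6b2 had 0.32, 0.41, 0.82 and 0.37 in ATII cells, against 0.95, 1.36 and 1.12 in fibroblasts (−0.66 ± 0.18, SE, adjusted p = 0.0134). None of these groups overlapped, and for Cox6b2 replicate 4 of the ATII cells and replicate 1 of the fibroblasts came closest. Atp5sl had 1.90, 1.95, 2.01 and 2.00 in ATII cells, against 1.80, 1.39 and 1.37 in fibroblasts (0.44 ± 0.11, SE, limma, adjusted p = 0.00745).

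Cox7a1 was the gene that passed here and not in vehicle, and it is named after its values were seen. It had −0.77, −0.24, 0.12 and −0.44 in ATII cells with BAPN, against −0.90, −0.72 and −1.25 in fibroblasts with BAPN. The groups overlapped, and the log2 change was 0.63 ± 0.18 (SE, limma, adjusted p = 0.0202). Within a slide 1 arm is a single array here, since slide 1 held 1 fibroblast BAPN array and slide 2 held 1 ATII BAPN array, so the values within slides are descriptions of these arrays. The median change of the 81 genes was −0.14 on slide 1 and 0.24 on slide 2. The 4 genes that passed both in vehicle and here kept their direction on each slide, with 0.22 and 0.46 for Uqcrc2, 0.41 and 0.41 for Uqcrfs1, 0.15 and 0.63 for Atp5sl, and −0.59 and −0.42 for Cox6b2. Cox6b2 lost its call without fibroblast replicate 2 (adjusted p = 0.066), and Uqcrfs1 without fibroblast replicate 1 or 4 (adjusted p up to 0.0655). Quantile scaling gave 14 higher and 1 lower.

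**Figure D3:**
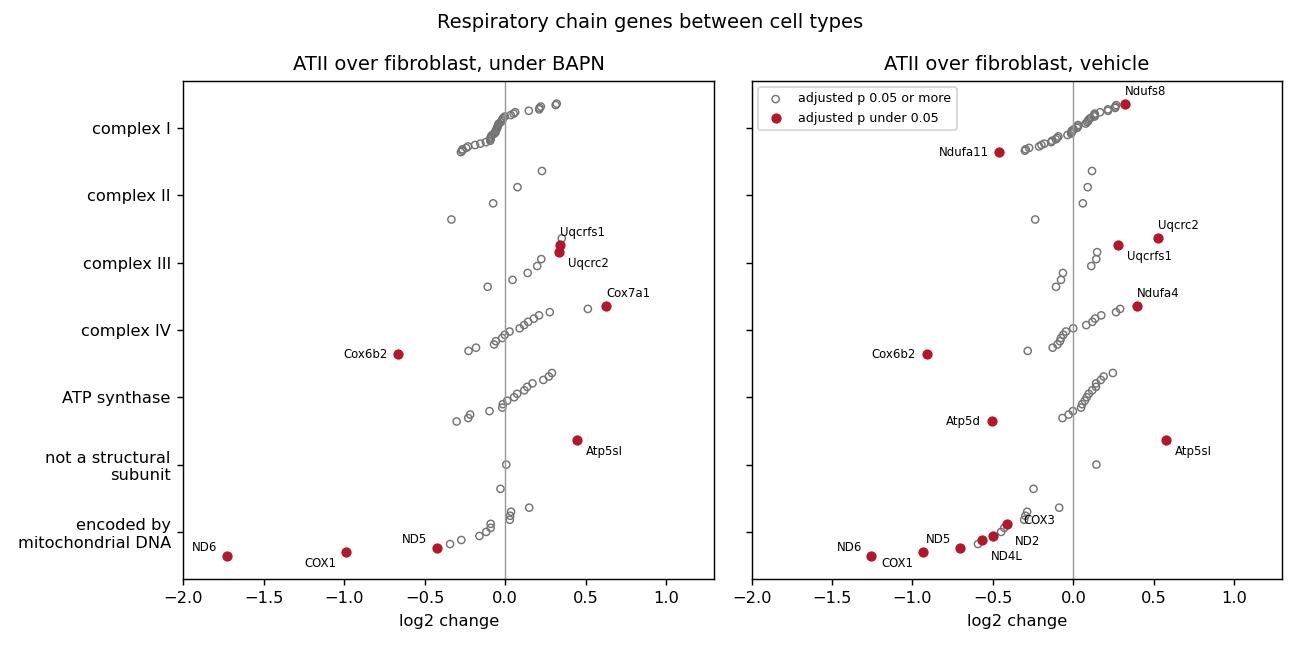
Log2 change (horizontal axis) of each respiratory chain gene, by complex, for ATII over fibroblast under BAPN (left) and in vehicle (right). Each point is a gene, filled and named where its adjusted p is under 0.05. The lowest row holds the 13 subunits encoded by mitochondrial DNA, all 13 of which lie below 0 in vehicle.

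The subunits encoded by mitochondrial DNA were set beside the nuclear ones. In vehicle, 6 of 13 were lower in ATII cells and 0 higher, with a median log2 change of −0.45, against 16.8% lower, 14.5% higher and a median of −0.13 among all features. COX1, the catalytic subunit of complex IV, had a level of 7.55 ± 0.11 in ATII cells, against 8.49 ± 0.31 in fibroblasts (SD, n = 4 each; log2 change −0.94 ± 0.17, SE, limma, adjusted p = 0.000785). ND6, the subunit gene carried on the other strand of mitochondrial DNA, had 0.37 ± 0.55 in ATII cells, against 1.63 ± 0.38 in fibroblasts (SD, n = 4 each; −1.26 ± 0.28, SE, adjusted p = 0.00319). ND5, ND4L, ND2 and COX3 were lower by 0.71, 0.57, 0.50 and 0.41 on the log2 scale. For ND4L and COX3, as for 6 of the 13, the array file places the sequence on chromosome 1, not on M, so the copy measured is uncertain. All 13 were below 0 on each slide and without fibroblast vehicle replicate 4, where the median was −0.34. Under BAPN 3 of 13 were lower, COX1 (−0.99), ND5 (−0.43) and ND6 (−1.73), and 0 higher, with a median of −0.12, against 15.9% lower among all features. There, the median was −0.24 on slide 1 and 0.13 on slide 2, each with 1 array in an arm.

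Other genes of the pathway were described from lists, whose counts stand beside 14.5% higher and 16.8% lower among all features in vehicle, and 13.4% and 15.9% under BAPN. Nothing particular to a list was tested. Of 43 tested assembly factors, 10 were higher and 4 lower in ATII cells with vehicle, with a median log2 change of 0.06. Among them, Tmem70, an assembly factor of ATP synthase, was higher by 0.71 ± 0.14 (SE, limma, adjusted p = 0.00154). Cox11, which delivers copper to complex IV, was higher by 0.65 ± 0.10 (SE, adjusted p = 0.000323), and Cox20, a chaperone of a complex IV subunit, had −0.78 ± 0.13 (SE, adjusted p = 0.000472). Lyrm7, counted among the 4 lower, was well above background on no ATII vehicle array and entered the test only through fibroblast arrays. It was at least 1.59-fold lower. Under BAPN, 3 of 41 were higher and 6 lower, and Cox11 and Cox20 passed again with 0.52 and −0.77.

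Of 9 tested genes of a list of other electron carriers and oxidases, 2 were higher and 3 lower in ATII cells with vehicle. The list was drawn up with Cyc1, a complex III subunit that the naming rule does not match, and Aox1, an aldehyde oxidase. Ndufa4l2, a relative of Ndufa4 that is induced in hypoxia, had −2.43 ± 0.33 in ATII cells, against 0.16 ± 0.24 in fibroblasts (SD, n = 4 each; log2 change −2.59 ± 0.17, SE, limma, adjusted p = 9.35e-08). Under BAPN it was again lower, at −2.53 ± 0.18 on the log2 scale (SE, adjusted p = 2.99e-07). Cycs, cytochrome c, was higher in ATII cells with vehicle by 0.39 ± 0.13 (SE, adjusted p = 0.0403).

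Of 17 genes of the tricarboxylic acid cycle, 7 were higher and 2 lower in vehicle, with a median log2 change of 0.20. Suclg2 (0.82), Idh2 (0.74) and Pdhb (0.56) had the largest rises, and Idh3b (−0.38) and Ogdh (−0.39) were the lower ones. Under BAPN, 4 were higher and 3 lower. Of 14 regulators of mitochondrial biogenesis, 4 were higher and 1 lower in vehicle. Ppargc1b, a coactivator gene, was well above background on 4 of 4 ATII arrays and on 0 of 4 fibroblast arrays, at least 2.24-fold higher, and at least 4.45-fold higher under BAPN. Ppargc1a was at least 1.51-fold higher in vehicle, where no fibroblast array had it well above background. Both genes entered the test only through ATII arrays, so lower bounds alone are given. They are among the 4 counted as higher in vehicle, so that count rests in part on the filter. Under BAPN, 1 of the 14 was higher, which was Ppargc1b, again tested only through ATII arrays, and 1 lower. Tfam, which packages and transcribes mitochondrial DNA, was higher by 0.51 ± 0.11 (SE, limma, adjusted p = 0.0033) in vehicle and differed by 0.05 ± 0.12 under BAPN (adjusted p = 0.825). Of 16 genes of the mitochondrial membrane, 2 were higher and 2 lower in vehicle, and the same counts held under BAPN.

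BAPN was then set against vehicle in fibroblasts, to ask whether the inhibitor alters expression. Of 81 respiratory chain genes, 3 passed (3.70%, limma), against 13.4% of 32255 features, with 2 higher (2.45% of all features) and 1 lower (10.9%). The median log2 change was 0.07, and that of all features 0.03. The median of the 81 genes was 0.25 on slide 1, which held 1 BAPN array, and 0.005 on slide 2. Leaving out 1 array gave 0.04 (without vehicle replicate 2) to 0.145 (without vehicle replicate 4). Among bright features alone 4 of 78 genes passed, all higher, against 9.23% of features, so the fall of Cox4i2 lies outside that set. Quantile scaling gave 1 higher and 1 lower.

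Cox4i2 had levels of −0.25, −0.90 and −0.82 in fibroblasts with BAPN, against 0.08, 0.17, 0.00 and 0.27 in fibroblasts with vehicle (replicates 1, 2 and 4, and 1 to 4). The groups did not overlap, and the log2 change was −0.79 ± 0.19 (SE, 1.72-fold lower, limma, adjusted p = 0.0212). The log2 change was −0.29 on slide 1, which held BAPN replicate 1 alone, and −1.08 on slide 2. In ATII cells with BAPN the array on slide 2 had −0.997, and those on slide 1 had −0.32, −0.22 and −0.25, against −0.09, −0.16, −0.10 and −0.26 with vehicle. The 3 BAPN arrays on slide 2 were thus the lowest of all 15 arrays, in both cell types. The call was lost without vehicle replicate 2 (adjusted p = 0.0548), vehicle replicate 4 (0.0549), BAPN replicate 2 (0.0924) or BAPN replicate 4 (0.0765).

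Ndufb5, an accessory subunit of complex I, had 4.66, 4.18 and 4.13 in fibroblasts with BAPN, against 3.69, 3.69, 3.81 and 3.89 with vehicle (log2 change 0.55 ± 0.13, SE, limma, adjusted p = 0.0204). The BAPN arrays lay above the vehicle arrays, and replicate 1, on slide 1, was the highest. The second array sequence of Ndufb5, printed above, gave 0.11 ± 0.11 (SE), so the rise was seen with 1 of 2 sequences. On slide 1 and slide 2 alone the log2 changes were 0.91 and 0.37. The call was lost without vehicle replicate 2 (adjusted p = 0.0558).

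**Figure D4:**
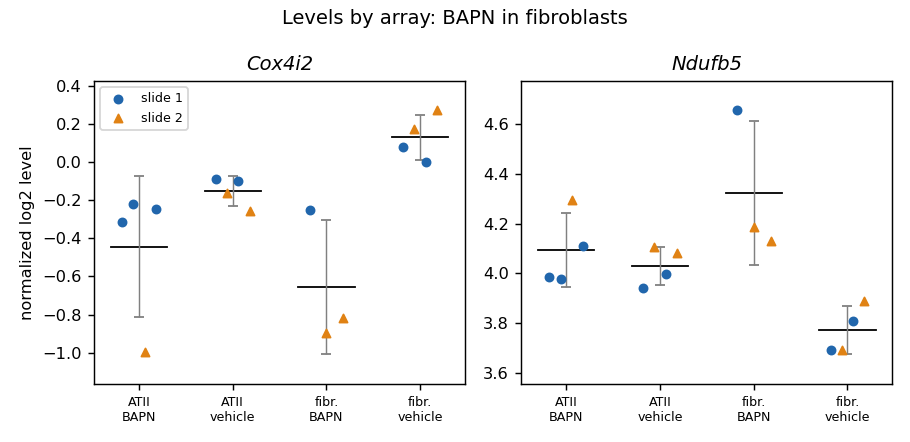
Normalized log2 level (vertical axis) of Cox4i2 and Ndufb5 in each array of the 4 groups, by slide, with group means (black lines) and SDs (bars). For Cox4i2 the slide 2 BAPN arrays lie at −0.997 (ATII) and at −0.90 and −0.82 (fibroblasts), below the slide 1 BAPN arrays at −0.32 to −0.22.

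The genes that came next did not pass. Ndufa4, Cox5b (a subunit of complex IV) and Atp5l (a membrane subunit of ATP synthase) had log2 changes of 0.46, 0.50 and 0.40 (limma, adjusted p = 0.0501, 0.0532 and 0.0998). The other array sequences of Atp5l gave 0.07 to 0.19, and that of Cox5b gave 0.28. In the other direction Atp5o, which joins the head of ATP synthase to its stator, had −0.26, Uqcrc1, a core protein of complex III, −0.24, Cox4nb −0.23 and Uqcr11, a small subunit of complex III, −0.23 (adjusted p from 0.186 to 0.335). Without BAPN replicate 4, Ndufa4 and Cox5b passed (adjusted p = 0.0429 and 0.0469). Without BAPN replicate 1, their log2 changes were 0.32 and 0.29 (adjusted p = 0.177 and 0.187). Of the mitochondrially encoded subunits 0 of 13 passed. Of 41 assembly factors Cox15, which makes heme A for complex IV, was higher (0.44 ± 0.11, SE, adjusted p = 0.0252), and Cox17, a copper chaperone of complex IV, was lower (−1.13 ± 0.29, SE, adjusted p = 0.0253). Of 17 tricarboxylic acid cycle genes 3 were higher and 0 lower, and of 16 mitochondrial membrane genes 1 was higher and 0 lower. Among all features 2.45% were higher and 10.9% lower. Of 12 tested biogenesis regulators and of 9 other electron carriers and oxidases 0 passed.

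**Figure D5:**
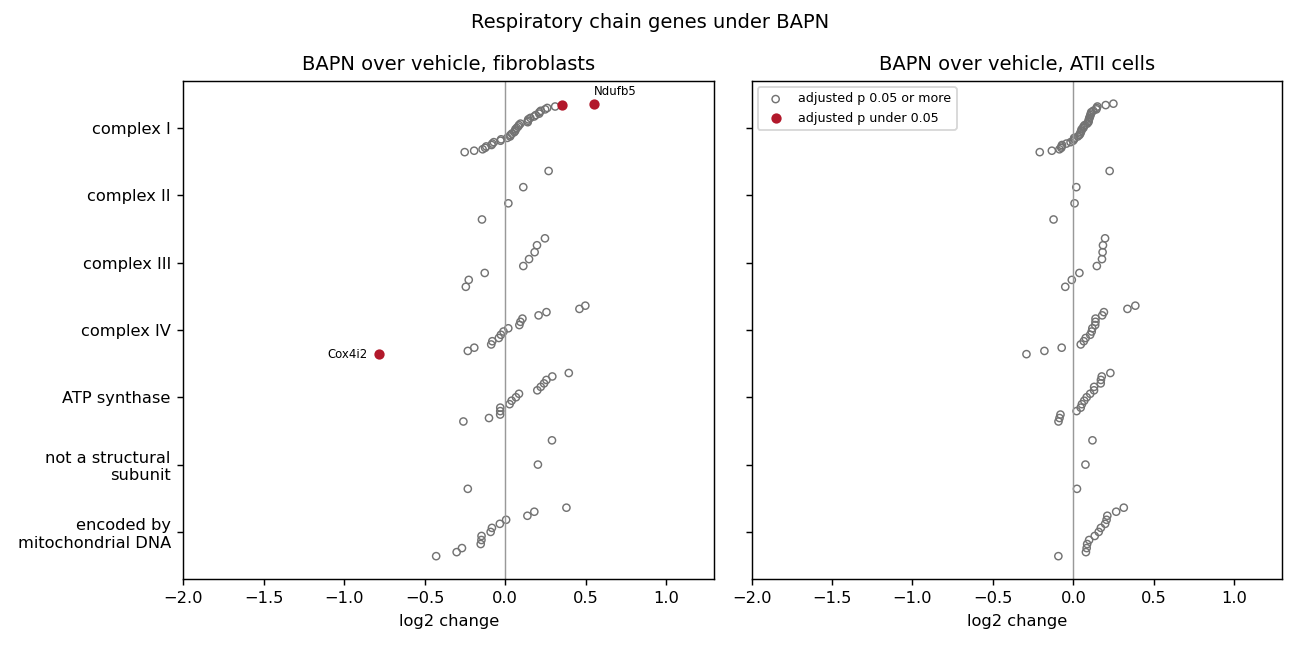
Log2 change (horizontal axis) of each respiratory chain gene, by complex, for BAPN over vehicle in fibroblasts (left) and in ATII cells (right). Filled points have an adjusted p under 0.05, 3 nuclear genes in fibroblasts and 0 in ATII cells, and those described in the text are named.

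In ATII cells BAPN and vehicle differed for 0 of 81 genes (limma), against 0.0% of 32045 features. At an unadjusted p under 0.05 there were 1 of 81 genes and 3333 of 32045 features. That gene was Ndufa10, an accessory subunit of complex I, with a log2 change of −0.21 ± 0.09 (SE, adjusted p = 0.464). The largest upward values by p were Cox6b2 (0.34), Atp5a1 (0.23), Uqcrfs1 (0.18), Ndufs6 (0.20) and Ndufa5 (0.25), the last 2 accessory subunits of complex I. After Ndufa10, the downward ones were Cox4i2 (−0.29), Cox7c, a small subunit of complex IV (−0.18), Ndufv2 (−0.13) and Sdha (−0.12). All had an adjusted p of 0.464 or more. The precision was high: the 95% interval lay inside 2-fold for 80 of 81 genes, against 69.9% of all features, and the median size of the change was 0.10. Of the 81 genes, 63 lay above 0, and the median was 0.08 against 0.003 for all features. Without ATII BAPN replicate 4 the median was 0.02. The ATII BAPN array on slide 2, replicate 4, lay 0.14 above its group mean in the median of 75 bright members, and the median change was 0.06 on slide 1 and 0.21 on slide 2, where it was the single BAPN array.

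The difference of the BAPN effects, ATII cells minus fibroblasts, passed for 0 of 81 genes (limma), against 0.0% of 34287 features. At an unadjusted p under 0.05 there were 3 of 81 genes and 4731 of 34287 features. Among them were Ndufb5 (−0.49 ± 0.19, SE, adjusted p = 0.279) and Sdha (−0.39 ± 0.17, SE, adjusted p = 0.329). Ndufa4 and Cox5b had −0.40 and −0.36, and Uqcrc1, Cox4i2, Ndufb4, Cox4nb and Ndufa12 had 0.43, 0.49, 0.26, 0.25 and 0.23. Ndufb4 and Ndufa12 are accessory subunits of complex I. The 95% interval lay inside 2-fold for 79 of 81 genes, against 45.6% of all features.

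Promoters of the members were compared with those of all genes for short motifs, since many respiratory genes are known to share binding sites of NRF1, of ETS factors such as GABP and of YY1. RefSeq promoters of GRCm38.p6 (250 bases before the start site to 50 after it) were matched for 68 members and 27025 genes in all, and both strands were searched. The letters GCATGCGC of the NRF1 core were in 10 of 68 member promoters (14.7%), against 2.80% of all. The ETS core CCGGAAG was in 15 (22.1%), against 9.12%, and the YY1 core AGATGGC in 11 (16.2%), against 6.45%. CCAAT was in 45.6%, against 37.9%, and TATAAA in 8.82%, against 14.2%. In 0 member promoters did any of these motifs overlap another. A match describes letters in this window and no bound site.
As examples, 3 of the 10 stretches with the NRF1 core and 1 of the 11 with the YY1 core are printed with the core in capitals and genome coordinates in GRCm38.p6.
Ndufa11, chr17:56717693-56717722, plus strand: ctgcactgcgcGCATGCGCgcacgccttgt
Uqcrc1, chr9:108936668-108936697, plus strand: actccgctctgcGCATGCGCagcgcggctc
Cox6a1, chr5:115349100-115349129, minus strand: aggaacggggcGCATGCGCgctctcgctcc
Atp5sl, chr7:25619430-25619459, plus strand: gttacctggcaAGATGGCggcgcccagagc
Counted from the start site, the first base of the match was at −58 in Ndufa11, −160 in Cox6a1, 33 in Uqcrc1 and 28 in Atp5sl.

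How far the array sequences of 1 gene differed varied between the comparisons. In vehicle, the log2 changes between cell types of the sequences of 1 gene spanned a median of 0.09 over 29 genes, and more than 0.5 for 2 of them. These were Atp5g1, a membrane ring subunit of ATP synthase (0.05 and −0.87), and Atp5j, a stalk subunit (0.05 and −1.44), where the brighter sequence stands for the gene in each case. For BAPN in fibroblasts the span had a median of 0.22 over 29 genes, larger than the median size of the change of the 81 genes (0.14), and was over 0.5 for 5 of them. The median span was 0.14 between cell types under BAPN and 0.13 for BAPN in ATII cells, over 28 genes each.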

How the data were processed

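RNA of 15 samples was hybridised to 1-colour Agilent arrays. The deposited scanner output gives an intensity per spot, which Agilent Feature Extraction 10.7.3.1 had corrected for background and for trends across the array, per the file headers. Probe coordinates are in mm9. The authors' series table, used as an alternative, gives log2 values that have one distribution on every array. Its direction and scale are those of log2 intensity (r of at least 0.999 with each array), its values are not centred by gene, and its column medians are 5.956.

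From the intensities, log2 processed signal minus the array's 75th percentile was computed. Outlier spots were left out, spots of a probe averaged, and a gene was represented by its brightest probe. Probes were named through RefSeq accessions (27233), file symbols (3463) or older symbols (502), and 24014 stayed unnamed. A feature was tested where 3 or more arrays of the compared groups had it well above background, using limma 3.58.1 in R 4.3.3 on all 15 arrays (11 residual degrees of freedom), with two-sided p-values adjusted by Benjamini-Hochberg. The number of arrays limits the precision. Tests were checked on simulated data. Python 3.11.15, pandas 2.3.3, numpy 2.4.6 and matplotlib 3.10.9 were used.

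The members and lists were chosen with earlier results of these data known. The genes named were the 10 largest rises and falls that passed without overlap (cell types), the 5 of each direction, filled up by smallest p (BAPN), and fixed lists of isoforms and core subunits. Same-numbered vehicle arrays of the 2 cell types always shared a slide, and their deviations correlated by 0.22 to 0.39. Arrays of one slide with different numbers correlated by 0.24 to 0.334, and arrays of different slides by −0.408 to −0.175. The vehicle arrays thus do not show a pairing by number apart from the slide. For BAPN against vehicle in fibroblasts, same-numbered arrays correlated by −0.046 to 0.276 and other arrays of one slide by −0.398 to −0.328. In ATII cells these ranges were −0.038 to 0.406 and −0.26 to −0.141. Arrays of different slides ranged from −0.08 to 0.298 and from −0.226 to 0.334. Same-numbered arrays there correlated more than other arrays of their slide, which the main tests of BAPN left out of account. No sample numbered 3 of fibroblasts with BAPN was analysed here. One gene that enters the counts is not reported here.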

Additional observations from a re-analysis of the deposited data

Results flagged for a closer look

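In 10 of 129 sets of 4 arrays (43 named genes in 3 groups), the highest or lowest array lay far from the other 3 of its group, and chance alone gives about 1 in 20. Of these, 3 were fibroblast vehicle replicate 4, with 6.20 for Atp5a1 (nearest 5.76), 4.79 for Ndufs1 (nearest 4.58) and 4.45 for Uqcrc2 (nearest 4.54). Another 3 were ATII BAPN replicate 4, with −0.997 for Cox4i2 (nearest −0.32), 6.77 for Cox7a2l (nearest 6.41) and 5.26 for Ndufs3 (nearest 4.96). ATII vehicle replicate 1 had 1.83 for Atp5sl (nearest 1.90) and 4.38 for Uqcrc1 (nearest 4.16). ATII vehicle replicate 4 had 5.37 for Cox7c (nearest 5.17), and fibroblast vehicle replicate 2 had −0.49 for Cox6a2 (nearest 0.16).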

How the results depend on the processing

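Counts of respiratory chain genes that passed moved by more than 1.5 times as follows, and the cause was not tested. Between cell types in vehicle, the 8 genes became 3 on slide 1 alone, 1 on slide 2 alone, 5 with the replicate number as a block and 13 among bright features alone, a setting chosen after seeing the data. Leaving out 1 array gave 5 to 11, with 5 without fibroblast replicate 1, 2 or 3 or ATII replicate 2 or 4, and 11 without fibroblast replicate 4. Between cell types under BAPN, the 5 genes became 15 with quantile scaling, 9 with normexp background, 13 with the deposited series values, 0 on slide 2 alone, 1 with only the groups compared, 1 with the replicate block and 10 among bright features, and 3 to 5 without 1 array (3 without fibroblast replicate 4). For BAPN in fibroblasts, the 3 genes became 1 with normexp, 5 with features above background on all arrays, 9 with a correction for position on the array, 1 on slide 2 alone, 0 with only the groups compared, 0 with the replicate block and 0 to 3 without 1 array (0 without vehicle replicate 2, 1 without BAPN replicate 2). For BAPN in ATII cells, the 0 genes became 1 on slide 2 alone. That gene was Cox4i2 (adjusted p of 0.0378), and the BAPN arm was there 1 array, replicate 4, which lay far from the others of its group for this gene. Tests with fibroblast BAPN on slide 1 alone, or with ATII BAPN on slide 2 alone, rest on 1 array in that arm, assumed to vary like the other groups. The difference of the BAPN effects stayed at 0 genes under every alternative run. Same-numbered arrays shared a slide in every comparison, and what the replicate numbers pair is not known. For BAPN in fibroblasts the block left 0 of all 32255 features past the threshold (limma), with 8046 at an unadjusted p under 0.05.

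The genes whose log2 change turned its sign had not passed. In vehicle on slide 1 alone these were Cox4i1 (0.007), Cox6a1 (0.023), Cox6a2 (−0.314), Cox6b1 (0.033), Cox7a2 (0.019), Cox7a2l (0.005), Cox7b (0.062), Ndufs7 (0.079), Ndufv1 (0.029), Sdhd (−0.050) and Atp5a1 (0.099). With quantile scaling they were Cox7b (0.024), Ndufv1 (0.009) and Atp5a1 (0.019), and the authors' series table gave 0.022, 0.009 and 0.018 for them. With normexp they were Cox7a2 (0.052), Cox7b (0.042), Ndufs7 (0.036), Sdha (−0.001) and Atp5a1 (0.034), and with the position correction Ndufs7 (0.051) and Ndufv1 (0.007). Without 1 array, Cox6a1 ran between −0.138 and 0.026, Cox6a2 between −0.171 and 0.341, Cox6b1 between −0.169 and 0.022, Cox7a2 between −0.118 and 0.055, Cox7a2l between −0.132 and 0.054, Cox7b between −0.049 and 0.097, Ndufs7 between −0.055 and 0.054, Ndufv1 between −0.044 and 0.055, and Atp5a1 between −0.051 and 0.117. For BAPN in fibroblasts Uqcr11 turned on slide 1 alone (0.078). In ATII cells Cox6b2 did so on slide 1 alone (−0.016) and Cox7c with the mean of its array sequences (0.005). In the difference, Ndufb4 turned with the mean (−0.009) and on slide 1 alone (−0.017), and Cox5b on slide 2 alone (0.132).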
